A study of Mus musculus with 2 samples.

Results

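Small nucleolar RNA (snoRNA) genes were described across the colon of complement C3 knockout (C3 KO) mice and wild type (WT) mice. The genes were all transcript clusters of the array's main category whose gene symbol began with Snord (C/D box family) or Snora (H/ACA box family), with upper and lower case kept. This rule gave 124 clusters with 108 gene symbols, out of 33793 main clusters and 41345 probe sets in all. The C/D box family held 88 clusters with 73 symbols and the H/ACA box family held 36 clusters with 35 symbols. Total RNA came from untreated 16-week-old mice, the C3 KO mice on an FVB background and the WT mice of the FVB strain, both bred from heterozygous parents. Each genotype was measured on 1 Mouse Gene 2.0 ST array, and the sources used here do not say whether an RNA sample came from 1 mouse or from several. The tissue is given as distal colon in one label and as mid colon in the extraction step. Since each group had 1 array, the spread between mice is unknown, no test could be made and no p-value is given.

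Small nucleolar RNAs are short non-coding RNAs of the nucleolus that pair with ribosomal RNA or small nuclear RNA. C/D box members guide the addition of a methyl group to the ribose of the paired nucleotide, whereas H/ACA box members guide the change of uridine to pseudouridine. A few members instead serve the cleavage of the ribosomal RNA precursor. Most vertebrate members are cut out of introns of host genes, many of which encode ribosomal proteins or translation factors, and the colon epithelium renews itself quickly and so makes ribosomes steadily.

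The array level is a log2 signal, normalized by robust multi-array averaging (RMA), and 1 unit stands for 2-fold. It depends on the affinity and number of the probes, so the order of levels between genes is an order of array signals and not of molecules. The C3 gene had a level of 6.80 in the C3 KO array and 8.15 in the WT array. Colon epithelium markers were between 8.56 and 12.69 in the C3 KO array and between 8.61 and 13.22 in the WT array, and 1 of 8, Car1, was at least 1.5-fold lower in C3 KO. All 6 pancreatic acinar markers were lower in C3 KO, between 3.36 and 6.31 in the C3 KO array against between 11.60 and 13.30 in the WT array. Of 5 sex-linked genes, the 4 Y-linked ones were higher in C3 KO and Xist was 3.81 in the C3 KO array and 10.35 in the WT array, so that genotype and the sex signal cannot be told apart. None of 4 smooth muscle and 5 neuron markers differed by 1.5-fold, while 3 of 4 liver markers and 1 of 4 B cell markers were higher in C3 KO. The part of these marker differences in the snoRNA values was not tested.

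In the H/ACA box family, 3 members overlap microRNA hairpins of the mouse genome, and the hairpins show part of the RNA that these clusters measure. For Snora19, Snora36b and Snora34, the hairpins share 68, 69 and 92 bases with clusters of 132, 137 and 138 bases. They are printed 5′ to 3′ as given by RefSeq on GRCm38.p6, and 105 of the 108 symbols were found in that annotation. In the first pair the capitals mark an ACA near the 3′ end, where the box that names the family lies, and in the last one they mark the mature miR-1291.
Mir3084-1 in Snora19 (chr19:24942235-24942303, minus strand): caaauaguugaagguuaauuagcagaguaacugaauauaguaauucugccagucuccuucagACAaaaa
Mir664 in Snora36b (chr1:185242975-185243043, plus strand): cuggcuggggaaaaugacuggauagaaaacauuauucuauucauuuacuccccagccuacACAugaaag
Mir1291 in Snora34 (chr15:98519762-98519878, minus strand): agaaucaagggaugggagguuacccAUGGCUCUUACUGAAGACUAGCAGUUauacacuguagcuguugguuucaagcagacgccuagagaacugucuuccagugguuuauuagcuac
The hairpin in Snora19 has the same letters as Mir3084-2 in the other Snora19 copy (chr19:60774329-60774397, minus strand), and the array gave both copies the same value, 5.82 in the C3 KO array and 5.87 in the WT array. Its ACA is followed by 4 bases, the last of which lies just outside the interval given for the array cluster. Snora36b, whose ACA is followed by 6 bases, had a level of 4.41 in the C3 KO array and 4.86 in the WT array. Snora34, which shares 92 of the 117 hairpin bases, was among the bright members at 11.34 in the C3 KO array and 11.09 in the WT array. No reference sequence of the other members was at hand, so their boxes were not searched.

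The snoRNA genes were bright. Their median level was 8.54 in the C3 KO array and 8.55 in the WT array, against medians over all main clusters of 5.46 in C3 KO and 5.51 in WT. In the C3 KO array the middle range, from the first to the third quartile, ran from 7.32 to 10.32, and in the WT array it ran from 7.38 to 10.35. Only Snord64 and Snord107 (1.61% of the clusters) lay below the background median in both arrays, which was 3.99 in C3 KO and 4.20 in WT and came from 23 probe sets that match no mouse transcript. Of all main clusters, 19.8% lay below it in both. The levels of the 108 symbols in the C3 KO array followed those in the WT array closely (Pearson's r = 0.996, Spearman's rho = 0.996, across genes measured with the same probes).

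**Figure D1:**
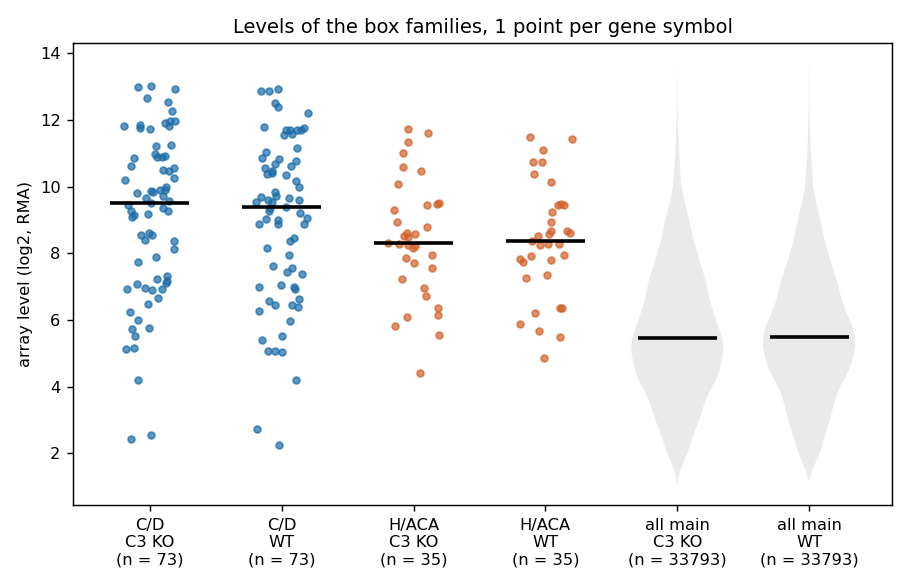
Array level (log2, RMA) of each snoRNA gene symbol in the C3 KO and WT arrays for the C/D box family (blue, n = 73) and the H/ACA box family (orange, n = 35), beside the distribution over all 33793 main clusters (grey). Black bars are medians; the C/D box median was 9.50 in C3 KO and 9.38 in WT, the H/ACA box median 8.32 and 8.37, and all main clusters had 5.46 and 5.51.

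The C/D box family had higher levels than the H/ACA box family in both arrays. With 1 value per symbol, the C/D box median was 9.50 in the C3 KO array and 9.38 in the WT array, whereas the H/ACA box median was 8.32 in C3 KO and 8.37 in WT. Over clusters, the gap was smaller, because Snord116l1 alone counts 16 times. The C/D box median was then 8.85 in C3 KO and 8.89 in WT, and the H/ACA box median was 8.31 in C3 KO and 8.34 in WT. The gap in the median of the mean level was 0.52 over clusters, 0.94 over symbols and 1.10 without the Snord116 copies. Levels of 10 or more were found for 27 C/D box symbols (37.0%) and 7 of 35 H/ACA box symbols. The spread within each family was larger than the gap between them: C/D box symbols ran from 7.18 to 10.90 between quartiles in C3 KO and from 7.06 to 10.77 in WT, and H/ACA box symbols ran from 7.40 to 9.47 in C3 KO and from 7.55 to 9.46 in WT. Clusters are not replicates of a family, so this gap is a description.

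Among C/D box members, the brightest was Snord100, cut from the ribosomal protein gene Rps12, with 13.03 in the C3 KO array and 12.92 in the WT array. Snord22, from the non-coding host Snhg1, had 13.00 in C3 KO and 12.88 in WT, and Snord32a of the Rpl13a gene had 12.92 in C3 KO and 12.86 in WT. These 3 members were closer to each other than 0.2 log2 in each array, so their order carries no weight. Snord16a of Rpl4 followed with 12.67 in C3 KO and 12.51 in WT, and Snord60 with 12.53 in C3 KO and 12.39 in WT. Snord49b, which shares the host 2410006H16Rik with Snord49a and Snord65, had 12.28 in C3 KO and 12.20 in WT.
The brightest H/ACA box members were Snora21 of Rpl23 at 11.74 in C3 KO and 11.44 in WT, and Snora16a of Snhg12 at 11.61 in C3 KO and 11.49 in WT. Snora34, shown above, came next. Snora15, in the chaperonin subunit gene Cct6a, had 11.01 in C3 KO and 10.74 in WT. Snora23 of the importin gene Ipo7 had 10.61 in C3 KO and 10.74 in WT, and Snora69 of Rpl39 had 10.48 in C3 KO and 10.38 in WT. The brightest H/ACA box member thus lay below the 6 brightest C/D box members in both arrays.

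The number of probes did not separate the families. A C/D box cluster had a median of 21 probes (quartiles 14.75 and 25) and an H/ACA box cluster 18.5 (14 and 22.25), against 22 (17 and 25) over all main clusters. With 1 value per symbol the medians were 19 for C/D box and 18 for H/ACA box members. Across symbols the mean level hardly followed the number of probes, with r = 0.11 and rho = 0.15 for 73 C/D box symbols, and r = -0.06 and rho = -0.04 for 35 H/ACA box symbols. The fewest probes, 8, were shared by members as far apart as Snora21 at 11.74 in C3 KO and 11.44 in WT and Snord88c at 6.92 in C3 KO and 7.45 in WT. Probes that also match other transcripts (cross-hybridization type 3) made up 42 of 88 C/D box clusters and 19 of 36 H/ACA box clusters. For Snord7 and Snora24, the array interval spans 3231 and 785 bases, whereas the RefSeq genes span 96 and 130 bases, so these probe sets can measure other RNA as well.

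**Figure D2:**
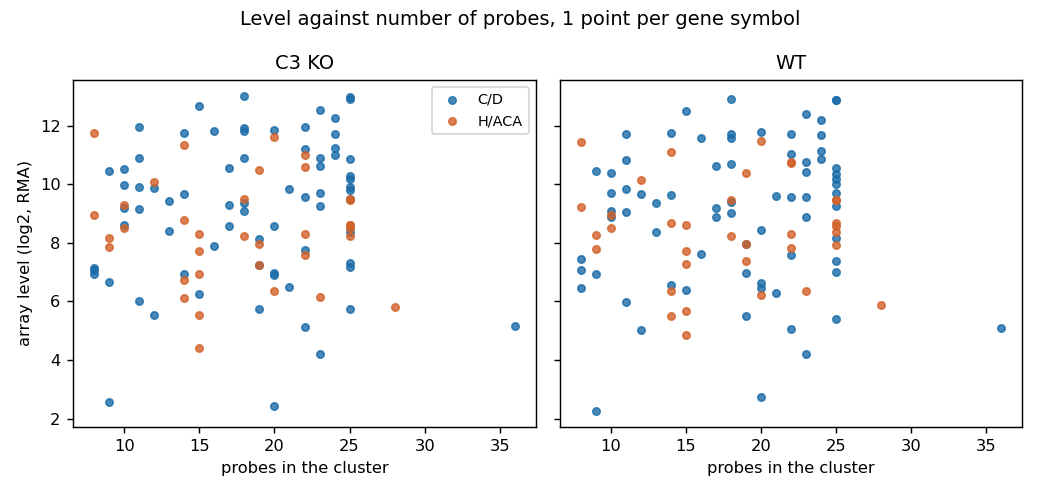
Array level (log2, RMA) against the number of probes in the cluster for each snoRNA gene symbol, in the C3 KO array (left) and the WT array (right), with C/D box members in blue and H/ACA box members in orange. Bright and dim members occur side by side between 8 and 25 probes, and r between mean level and probes was 0.11 for C/D box and -0.06 for H/ACA box symbols.

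Few snoRNA genes differed by 1.5-fold between the genotypes. Of the 124 clusters, 2 were at least 1.5-fold higher in C3 KO and 0 were at least 1.5-fold lower, which is 1.61% of them, and 0 reached 2-fold in either direction. Over all 33793 main clusters, 7.48% passed 1.5-fold in either direction, 3.66% being higher and 3.82% lower in C3 KO. In whole tissue, fewer cells of a type and less RNA per cell cannot be told apart. Brighter clusters varied less throughout the array, with 8.4% of all main clusters past 1.5-fold at mean levels from 4 to 6, 4.02% from 6 to 8, 3.12% from 8 to 10 and 2.04% from 10 up. In the same ranges, snoRNA clusters past 1.5-fold were 1 of 12, 1 of 38, 0 of 38 and 0 of 34, and the 2 clusters under 4 lay within it. The 12 include 2 Snora19 clusters with 1 value, and the 38 from 6 to 8 include 16 Snord116l1 clusters with 1 value. These counts therefore hold fewer measurements than clusters, and in ranges this small they are close to the shares of all main clusters. With 1 value per symbol, 2 of 108 were higher and 0 lower. The median difference, C3 KO minus WT, was 0.06 over the snoRNA clusters and 0.00 over all main clusters, and 93 of 108 symbols lay within 0.3 log2.

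**Figure D3:**
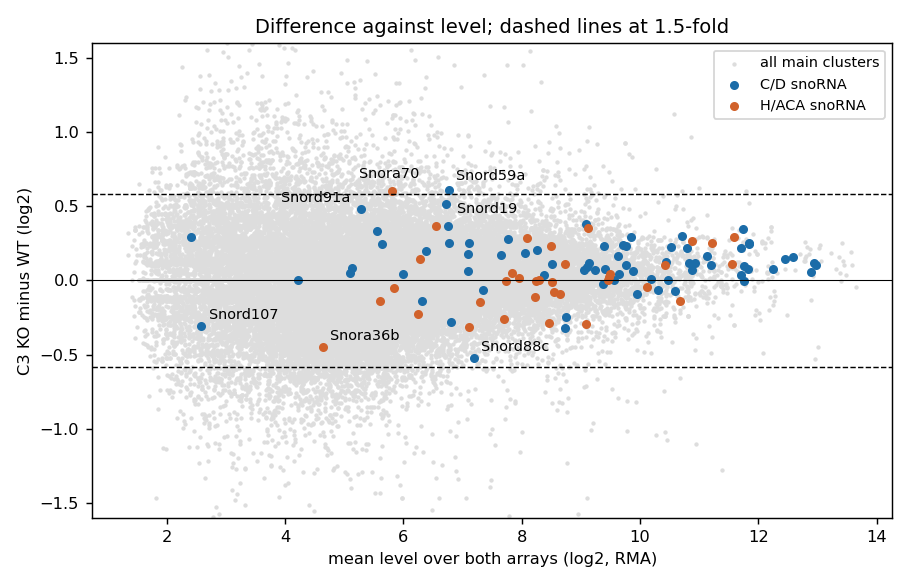
Difference between the arrays (C3 KO minus WT, log2) against the mean level over both arrays, for all main clusters (grey) and for each C/D box (blue) and H/ACA box (orange) snoRNA gene symbol, with dashed lines at 1.5-fold. The snoRNA points lie between -0.52 and 0.61, and 2 of them, Snord59a and Snora70, reach the upper line; grey points beyond 1.6 in either direction are not drawn.

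The members past 1.5-fold were Snord59a and Snora70. Snord59a, which lies on chromosome 10 in the gene of the ATP synthase beta subunit, Atp5b (GRCm38, chr10:128084143-128084216), had 7.07 in the C3 KO array and 6.46 in the WT array, a difference of 0.61. It rests on 8 probes, the lowest number of any member. The host Atp5b had 11.76 in C3 KO and 11.79 in WT. After centring the differences along the level scale, Snord59a was at 0.58, just under the threshold. Snora70, in the X-linked ribosomal protein gene Rpl10, had 6.11 in the C3 KO array and 5.50 in the WT array, a difference of 0.61. Its host Rpl10 had 6.58 in C3 KO and 6.01 in WT, a difference of 0.57, just short of 1.5-fold. The probes of Snora70 also match other transcripts. Of the other X-linked members, Snord61 had 11.73 in C3 KO and 11.69 in WT, Snora69 is given above, and Snora35 had 5.54 in C3 KO and 5.68 in WT.
Next below the threshold were Snord19 of Gnl3, the nucleostemin gene, with 6.98 in C3 KO and 6.46 in WT, and Snord91a of Tsr1, a gene for a ribosome assembly factor, with 5.52 in C3 KO and 5.04 in WT. Snord89 had 9.27 in C3 KO and 8.89 in WT, Snord53 had 6.94 in C3 KO and 6.57 in WT, Snora2b had 6.73 in C3 KO and 6.36 in WT, and Snora28 had 9.30 in C3 KO and 8.95 in WT. Their differences ran from 0.35 to 0.52.
On the negative side, the member with the largest gap was Snord88c, with 6.92 in C3 KO and 7.45 in WT, a difference of -0.52. Snord88a, in the same host gene 2410002F23Rik, had 6.67 in C3 KO and 6.94 in WT, while the host itself had 7.88 in C3 KO and 7.72 in WT. Snora36b was the next at -0.45. Snord14e of the heat shock gene Hspa8 had 8.57 in C3 KO and 8.89 in WT, Snora41 of the elongation factor gene Eef1b2 had 6.95 in C3 KO and 7.27 in WT, and Snora3 of Rpl27a had 8.94 in C3 KO and 9.23 in WT. Snora74a, Snora33 and Snord23 lay between -0.29 and -0.25.

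The sign of the differences was counted in each family as well. Of 73 C/D box symbols, 60 (82.2%) had a higher value in C3 KO, with a median difference of 0.11, whereas 17 of 35 H/ACA box symbols (48.6%) did, with a median of 0.00. Over all main clusters, 48.5% were above zero, but from a mean level of 8 up the share was 59.9%, and from 10 up it was 66.6%, with a median of 0.06. From 8 up, 43 of 50 C/D box clusters (86.0%) and 12 of 22 H/ACA box clusters (54.5%) were above zero. From 10 up, 88.9% of 27 C/D box and 71.4% of 7 H/ACA box clusters were. Among related RNA genes described below, 7 of 9 Scarna, 9 of 16 Rnu and 285 of 597 microRNA clusters were above zero. The Rnu1b1 and Rnu1b6 clusters share 1 difference (-0.08) and the Rnu3b1 and Rnu3b4 clusters another (0.08), so the 16 hold fewer measurements. So were 53 of the 76 host genes, and 69.5% of the 59 snoRNA clusters with a Gm symbol from 8 up. A lean above zero was thus not confined to the C/D box family. After centring along the level scale, 54 C/D box symbols (74.0%, median 0.07) and 13 H/ACA box symbols (37.1%, median -0.04) stayed above zero. Over C/D box clusters in place of symbols the share was 68.2%, being 84.8% among the 46 clusters of cross-hybridization type 1 and 50.0% among the 42 of type 3, which include the 16 Snord116l1 clusters with 1 negative value. The shift is small beside the threshold of 0.58, comes from 1 array per genotype, and could not be set against the spread between mice.

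**Figure D4:**
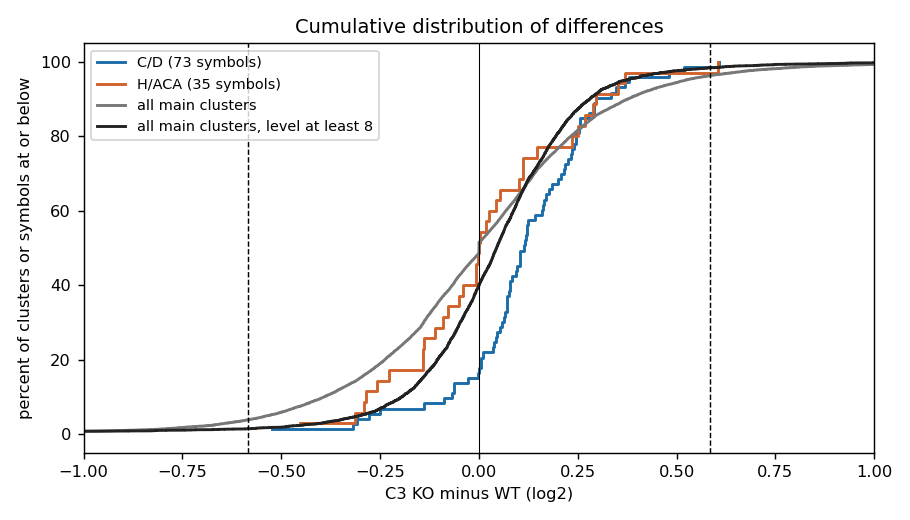
Cumulative percent of C/D box symbols (blue), H/ACA box symbols (orange), all main clusters (grey) and all main clusters from a mean level of 8 up (black) against the difference between the arrays (C3 KO minus WT, log2), with dashed lines at 1.5-fold. The blue curve lies to the right of the others around zero, with 82.2% of C/D box symbols above zero against 48.6% of H/ACA box symbols.

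Members with a role in cleaving the ribosomal RNA precursor were read one by one. Snord13, Snora61 and Snora62 were read beside them, without such a role being stated here. Snord118, the U8 RNA, which in frog oocytes is needed for the RNAs of the large subunit, had 8.40 in C3 KO and 8.36 in WT. Snord22, the U22 RNA, and Snord14 members, the U14 RNA, serve the small subunit in frogs and yeast. Snord14a of Rps13 had 6.89 in C3 KO and 6.64 in WT, a difference of 0.25, opposite in sign to Snord14e above at -0.32. Snora73a and Snora73b, the U17 RNA, whose yeast counterpart is also needed for the small subunit, had 8.61 and 7.72 in C3 KO, against 8.37 and 7.73 in WT. Both are cut from Snhg3, which had 5.60 in C3 KO and 5.23 in WT. Snord13, which guides an acetylation of small-subunit RNA in human cells and has its own promoter, had 10.51 in C3 KO and 10.38 in WT. Snora62 of the laminin receptor gene Rpsa had 9.45 in both arrays, and Snora61 had 9.51 in C3 KO and 9.47 in WT. The U3 RNA, which is the most abundant of those with a cleavage role in vertebrate cells, was not found under a Snord symbol. Clusters named Rnu3b1 and Rnu3b4, an older symbol of U3 genes, shared 1 value of 11.22 in C3 KO and 11.14 in WT, and Rnu3a had 8.49 in C3 KO and 8.33 in WT. Of these RNAs, none differed by 1.5-fold. Over all main clusters, 4.02% did at mean levels from 6 to 8, 3.12% from 8 to 10 and 2.04% from 10 up. In a set this small, such a count is close to those shares.

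Host genes were found by position for 101 of the 108 symbols, in 76 distinct genes, with Snord116l1 and Snora19 each placed by its first copy. The other copy of Snora19 lies in Eif3a, which is not among the 76. Ribosomal protein genes were 21 of the hosts and held 29 members, and genes with an Snhg symbol and Gas5 were 10 hosts with 15 members. Snhg16, which the array names 1810032O08Rik and which holds Snord1b and Snord1c, is not in that count. The level of a member did not follow that of its host, with r = 0.02 and rho = -0.01 in the C3 KO array and r = 0.01 and rho = -0.01 in the WT array over 101 pairs, which include several pairs with the same host. Differences between the arrays followed those of the host only weakly (r = 0.13, rho = 0.12), and 61 of 101 members had the sign of their host. Members were brighter than their host in 66 of 101 pairs in C3 KO and in 67 in WT, although levels of different probe sets are not abundances. Of the 76 hosts, 0 were at least 1.5-fold higher in C3 KO and 1 was lower, against 3.66% higher and 3.82% lower over all main clusters. The lower one was Htr2c, a serotonin receptor gene expressed in the brain and the host of Snora35, with 3.10 in the C3 KO array and 3.94 in the WT array, both below the background median. The median difference of the hosts was 0.09.

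Members cut from the same host often had very different levels. Of 20 hosts with several members, holding 45 members, 10 had members that spanned more than 2 log2 in mean level, and the median span was 2.28. The span of their differences between the arrays was much narrower, with a median of 0.19. The widest was Rpl23a, where Snord42a had 11.96 in C3 KO and 11.72 in WT, Snord42b 9.89 in C3 KO and 9.65 in WT, and Snord4a 5.12 in C3 KO and 5.07 in WT. In Rps12, Snora33 had 7.58 in C3 KO and 7.83 in WT, far below Snord100. The Rpl13a set, of which Snord32a and Snord35a are known from lipid stress in rodent cells, also spread widely: Snord35a had 10.90 in C3 KO and 10.68 in WT, and Snord34 had 8.15 in C3 KO and 7.96 in WT. Their host Rpl13a had 8.21 in C3 KO and 8.11 in WT. Of the 4 members in Snhg12, Snord99 had 11.26 in C3 KO and 11.15 in WT and Snora44 had 8.51 in C3 KO and 8.59 in WT, while the host itself had 6.74 in C3 KO and 6.36 in WT. In Gas5, a non-coding host that accumulates when growth stops, only Snord47 was among the members, with 11.91 in C3 KO and 11.57 in WT, against 7.05 in C3 KO and 6.86 in WT for Gas5. The nucleolin gene Ncl held Snord82, with 11.97 in C3 KO and 11.71 in WT, and Snora75, with 8.16 in C3 KO and 8.27 in WT.

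**Figure D5:**
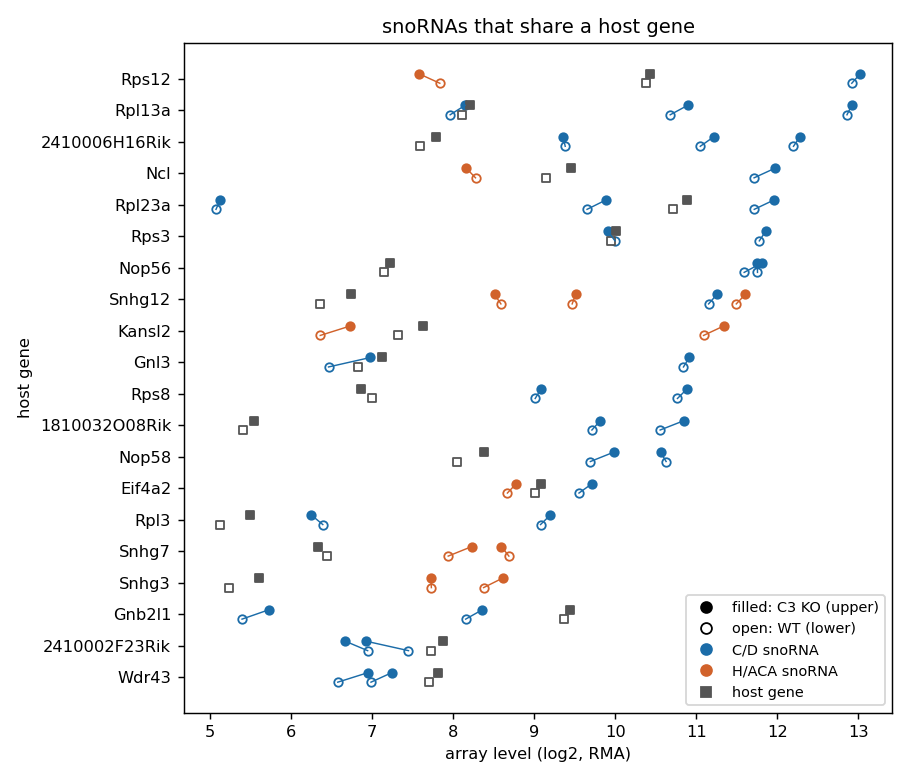
Array levels (log2, RMA) of snoRNAs that share a host gene, for the 20 hosts with several members, ordered by their brightest member. Circles are snoRNAs (C/D box blue, H/ACA box orange) and squares are the host, filled and upper for C3 KO, open and lower for WT; members of a host such as Rpl23a spread over 6.74 log2 in mean level, while the shift between the arrays is short.

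The start sites of the hosts were searched for a motif. Many genes of the translation machinery begin transcription at a C followed by a run of pyrimidines (the terminal oligopyrimidine motif, here C and then 4 bases that are each C or T, read on the gene's strand and not searched on the other). It was present exactly at the annotated start in 7 of 68 RefSeq start windows of 63 hosts (10.3%), against 2.51% of all 32851 start windows, and within 5 bases of the start in 33.8% against 18.3%. A match describes letters only. Windows of 30 bases around the start (GRCm38.p6, the start being base 16) are shown for 3 hosts named above that hold it, with the motif in capitals.
Gas5 (chr1:161035151-161035180, plus strand): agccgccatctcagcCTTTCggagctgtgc
Snhg12 (chr4:132308663-132308692, plus strand): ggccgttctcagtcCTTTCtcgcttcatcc
Rpl13a (chr7:45128731-45128760, minus strand): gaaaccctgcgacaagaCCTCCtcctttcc
In Gas5 the motif sits at the start itself, in Snhg12 it begins 1 base before it, and in Rpl13a 2 bases after it. An alternative start window of Gas5 and the windows of Snhg1, Rps12, Ncl and Gnl3, also named here, had no match within 5 bases of the start.

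Imprinted snoRNA genes on chromosome 7 were of middling level or dim. Snord116l1, of the repeated family whose human counterpart is lost in Prader-Willi syndrome, had 16 clusters with a single value, 7.32 in C3 KO and 7.38 in WT, so that they are 1 measurement. Its 25 probes match several copies. Its first copy lies in Ipw, which had 3.95 in C3 KO and 4.43 in WT, others lie in LOC102640399, with 5.12 in C3 KO and 5.06 in WT, and the rest in no host found by position. Snord64 had 2.56 in C3 KO and 2.26 in WT, and Snord107 had 2.43 in C3 KO and 2.74 in WT, all below background. No cluster carried a Snord113, Snord114 or Snord115 symbol. Clusters matched to RefSeq snoRNA genes on chromosome 12 carried other symbols and are part of the 46 described below. Their levels ran from AF357341, with 3.01 in C3 KO and 2.89 in WT, to AF357425, with 7.60 in C3 KO and 7.52 in WT. Whether they belong to those families was not tested.

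Proteins that bind or assemble the snoRNAs were counted against the share of 7.48% over all main clusters. In lists this short a count of 0 is close to that share. Of the C/D box core proteins, 4 of 5 symbols were measured and 0 passed 1.5-fold in either direction. The methyltransferase fibrillarin, Fbl, had 7.64 in C3 KO and 7.82 in WT, Nop58 had 8.38 in C3 KO and 8.05 in WT, and Nop56 had 7.22 in C3 KO and 7.15 in WT. Of the 4 H/ACA box core proteins, 0 passed. The pseudouridine synthase dyskerin, Dkc1, which is X-linked, had 6.69 in C3 KO and 6.22 in WT, and Nop10 had 6.82 in C3 KO and 7.12 in WT. Among assembly and processing factors, 0 of 18 measured passed, with Rrp9, a U3-binding protein, at 6.49 in C3 KO and 6.11 in WT and Nolc1, the chaperone of the particles, at 7.78 in C3 KO and 8.10 in WT. Of 20 measured host genes fixed by name, 0 passed.

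For comparison, the other short RNA genes were counted in the same way. The 1066 clusters described as snoRNA but named with a provisional Gm symbol had a median level of 4.16 in C3 KO and 4.06 in WT, and 46.1% of them lay below background in both arrays. Of these, 94 were at least 1.5-fold higher and 62 lower in C3 KO (14.6%), and 60 of the higher and 32 of the lower ones had a mean level under 4. Under level 4, 17.6% of them passed, against 13.0% of all main clusters. From 4 to 6 it was 16.8% against 8.4%, and from 6 to 8 it was 4.79% against 4.02%. Of the 59 at a mean level from 8 up, 2 were past the threshold upwards and 1 downwards (5.08%), against 2.95% of all main clusters at that level. The Gm-named clusters had a median of 11 probes (quartiles 9 and 16), against 22 (17 and 25) over all main clusters. The part of the number of probes in these shares was not tested. MicroRNA genes were as dim, with medians of 4.22 in C3 KO and 4.29 in WT, and 16.1% of 597 passed 1.5-fold, where 13.0% of all main clusters under level 4 and 8.4% of those from 4 to 6 did. The Scarna genes, which guide changes in small nuclear RNA in Cajal bodies, were bright, with medians of 8.75 in C3 KO and 8.81 in WT, and 0 of 9 passed, where 3.12% of all main clusters between 8 and 10 did. Of 16 Rnu clusters, which include the shared values given above, 1 passed (6.25%, against 7.48% over all main clusters). This was Rnu7, the U7 RNA of histone mRNA processing, with 4.12 in C3 KO and 3.18 in WT.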

How the data were processed

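Gene-level log2 values of both arrays were taken as the authors deposited them, after RMA normalization with Affymetrix Power Tools. The deposited annotation gave symbol, category, number of probes, cross-hybridization type and coordinates. The tables of fold changes and of KEGG and GO p-values hold the authors' own comparisons and were not used. The arrays' number, 1 per group, limits the precision.

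Members were chosen by symbol, and differences are C3 KO minus WT. A cluster was called at 1.5-fold (0.58 on the log2 scale), and counts were read against all main clusters. Members, gene lists and the rule for named genes were chosen with earlier results of these data known. The rule names the 8 members with the largest difference each way at a mean level of 5 or more, the 3 largest each way at any level, the 6 brightest of each family, members with a role of their own, sets by host, and proteins of the pathway. A host is the shortest symbol-bearing interval on the same strand that holds the member. For listed genes with several clusters, the longest was used. The background level was taken as the median over the 23 antigenomic sets. Level centring was by loess (fraction 0.3). Alternatives were centring, minimum mean levels of 4 and 6, background, 1 value per symbol, cross-hybridization type 1, the series value table, 2-fold and a shared range of probes. Calling was tested on simulated data. Sequences came from RefSeq tables (GRCm38.p6). The tools were pandas 2.3.3 and statsmodels 0.14.6 for tables and loess, matplotlib 3.10.9 for figures, and scipy 1.17.1 for correlations, under Python 3.11.15.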

Additional observations from a re-analysis of the deposited data

How the results depend on the processing

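The count of snoRNA clusters at least 1.5-fold higher in C3 KO was 2, and it was 1 after loess centring, with a minimum mean level of 6, and with cross-hybridization type 1 only, and 0 at 2-fold. For C/D box clusters the count was 1, and it was 0 after loess centring and at 2-fold. For H/ACA box clusters it was 1, and it was 0 with a minimum mean level of 6, with cross-hybridization type 1 only and at 2-fold. Each of these changes concerns Snord59a, at 0.58 after loess centring, or Snora70, whose mean level is 5.80 and whose probes match other transcripts too. No snoRNA cluster was lower under any of the other alternatives tried, but 2 were once the clusters at RefSeq snoRNA positions under other symbols were added, an alternative chosen after seeing the data, under which 3 were higher. Of those other alternatives, only loess centring could have given a lower cluster. The rest keep, drop or merge the same values or use a stricter cut. The gap between the families in median level was 0.52, and 0.69 among clusters above background, 0.94 with 1 value per symbol, 1.10 without Snord113 to Snord116 and 0.93 with cross-hybridization type 1 only. The share of H/ACA box symbols above zero, 48.6%, was 37.1% after loess centring, also chosen after seeing the data. The other 75 of 90 recomputed values moved by no more than 1.5 times for counts, and by less than 0.1 log2 for medians and 10 percentage points for shares. All 51 values of 17 named members moved by less than 0.1 log2, and Snord59a alone changed sides of the threshold. Centring on the median of all main clusters and the series value table could move no value, neither among these 51 nor among the 90. That median was 0.00, and the largest gap between the deposited tables over the members was 0.00. For the named members only loess centring could move a value, and it did so by at most 0.06 log2. No paired analysis was possible because each group has 1 array and the labels carry no replicate numbers. Box motifs could not be counted in the families, since their sequences were not at hand.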

Other observations

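Symbols miss part of the snoRNA genes on the array. Outside the Snord, Snora and Gm symbols, 46 short clusters shared at least 80% of their interval, in both directions, with a RefSeq snoRNA gene, most of them under the symbol of a host gene. They were looked for after the values of the members were seen. Their median level was 7.25 in the C3 KO array and 7.05 in the WT array, and 30 of the 46 had a higher value in C3 KO. Of these 46 clusters, 1 was at least 1.5-fold higher in C3 KO and 2 were lower, against 3.66% higher and 3.82% lower over all main clusters. In a set this small, such counts are close to those shares.

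The cluster with the largest difference carries the symbol Taf1d, a gene whose introns hold several snoRNAs (GRCm38, chr9:15315522-15315595, plus strand). It had 8.66 in the C3 KO array and 9.67 in the WT array, a difference of -1.01 or 2.01-fold, on 15 probes. The 4 other snoRNA-sized clusters matched in Taf1d had differences of 0.06, 0.22, 0.06 and 0.16, and the longest Taf1d cluster had 6.98 in C3 KO and 7.03 in WT. In Eif4a2, a translation initiation gene, 1 such cluster had 10.05 in C3 KO and 9.57 in WT. In Tcp1, a chaperonin gene, 1 had 6.17 in C3 KO and 5.56 in WT, whereas Snora20 in the same gene had 6.36 in C3 KO and 6.21 in WT. The remaining lower one, on chromosome 13, had 5.07 in C3 KO and 5.69 in WT.

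Under the name Rps2, the position of Snora64 had 9.99 in C3 KO and 9.82 in WT. Under the name Rpl5, that of Snord21 had 9.39 in C3 KO and 9.32 in WT, and under the name Ptcd3, that of Snord94 had 9.46 in C3 KO and 9.77 in WT. A further 14 clusters with no symbol, described as Snord116l1, shared the single value of that family.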
